A study of Mus musculus with 8 samples.

Results

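The tendon marker genes are 8 genes chosen by symbol: the transcription factors Scx and Mkx, the membrane protein Tnmd, and the matrix proteins Fmod, Kera, Chad, Comp and Thbs4. All 8 were found among the 54091 gene rows of the deposited table, and all 8 passed the minimum mean normalized count of 10 that left 13141 genes for testing. RNA-seq was made from white quadriceps, where fast glycolytic fibres prevail. The 8 mice were male, 11 to 14 weeks old and had fasted overnight for 14 h. The 4 floxed controls (replicates 1 to 4) carried Loxp/Loxp alleles. The 4 knockouts (replicates 5 to 8) carried CKM Cre, labelled as Acot2 ko in muscle. CKM, the muscle creatine kinase gene, is active in muscle fibres, so the Cre is aimed at fibres and not at tendon cells. Mice with Cre and no floxed allele were not analysed here, so Cre and loss of Acot2 cannot be told apart. As a check of the labels, Acot2, the targeted thioesterase gene, had a knockout mean that was 19.4% of the control mean, and every knockout lay below every floxed control (limma adjusted p = 0.087 over all tested genes). Reads on genes ranged from 28659626 to 40977859 per library. The mouse numbers in the titles run from 3204 to 3210 in 6 mice and are 3250 and 3251 in floxed control 3 and knockout 8. The labels do not say what these ranges mean.

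Tendon joins muscle to bone and is built of parallel fibrils of type I collagen, laid down by tendon fibroblasts. Scleraxis (Scx) and mohawk (Mkx) are transcription factors that drive tendon cell fate and matrix genes. Tenomodulin (Tnmd) is a membrane glycoprotein of mature tendon cells whose expression in the embryo depends on scleraxis. Fibromodulin (Fmod), keratocan (Kera) and chondroadherin (Chad) are leucine-rich repeat proteins of the matrix, and fibromodulin binds collagen and shapes its fibrils. Cartilage oligomeric matrix protein (Comp) and thrombospondin 4 (Thbs4) are pentameric thrombospondins that bind collagen. These genes are not made by tendon alone: keratocan is best known from the cornea, Comp and Chad from cartilage, and Thbs4 from the border of muscle and tendon. The question asked of them was whether they vary together from mouse to mouse, as a piece of tendon in the dissection would make them.

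The stretch just before the transcription start is shown for 4 members because scleraxis is a basic helix-loop-helix factor, a class that binds the E-box CANNTG. Fmod, Chad and Tnmd varied together in these libraries, and the pairs of Thbs4 with them had lower correlations. Each sequence runs 5′ to 3′ and ends at the last base before the start. Capitals mark CANNTG, which has the same letters on both strands. RefSeq's table for GRCm38.p6 matched 5 members by symbol, and 4 are printed. They lie at chr1:134037004-134037253 on the plus strand (Fmod), chr11:94564797-94565046 on the plus strand (Chad), chrX:133850758-133850979 on the plus strand (Tnmd) and chr13:92794819-92795068 on the minus strand (Thbs4).
Fmod: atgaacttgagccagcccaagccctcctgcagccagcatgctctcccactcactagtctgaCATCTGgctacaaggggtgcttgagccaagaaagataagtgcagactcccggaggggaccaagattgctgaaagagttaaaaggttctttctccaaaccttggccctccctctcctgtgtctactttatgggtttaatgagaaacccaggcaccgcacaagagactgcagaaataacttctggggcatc
Chad: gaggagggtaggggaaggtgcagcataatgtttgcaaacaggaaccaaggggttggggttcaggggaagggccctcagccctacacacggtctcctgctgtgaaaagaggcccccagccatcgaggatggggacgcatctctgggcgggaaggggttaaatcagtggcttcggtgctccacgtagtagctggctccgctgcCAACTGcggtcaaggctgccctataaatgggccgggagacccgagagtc
Tnmd: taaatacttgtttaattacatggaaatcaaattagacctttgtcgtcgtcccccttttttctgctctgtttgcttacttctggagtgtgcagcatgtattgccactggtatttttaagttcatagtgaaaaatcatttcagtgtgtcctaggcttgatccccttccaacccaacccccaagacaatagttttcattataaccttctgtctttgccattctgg
Thbs4: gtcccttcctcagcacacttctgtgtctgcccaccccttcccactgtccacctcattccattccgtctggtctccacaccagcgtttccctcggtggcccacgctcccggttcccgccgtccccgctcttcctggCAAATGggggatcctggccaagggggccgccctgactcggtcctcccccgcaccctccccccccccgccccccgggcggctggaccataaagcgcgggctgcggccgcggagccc
Fmod, Chad and Thbs4 held 1 CANNTG each in 250 bases, where 66.2% of 32851 windows of that length held at least 1. Tnmd held 0 in 222 bases, where 62.4% of windows cut to that length held at least 1. The letters TATAAA, searched on both strands, occurred once before Chad, and 12.4% of windows of 250 bases held them. GC content was 51.2% for Fmod, 60.4% for Chad, 39.2% for Tnmd and 70.8% for Thbs4. The matches describe letters in a window, not sites that a factor is known to bind.

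In length-scaled terms the matrix genes Thbs4 and Fmod were far more abundant than the other members. Thbs4 had a mean of 1078 normalized counts per kb of its longest annotated transcript (731 to 1676 over the 8 libraries), above 92.5% of the 12722 tested genes with a known length. Fmod followed with 496 per kb (236 to 774), so these neighbours overlapped only at the edges of their ranges. Comp had 59.8 per kb (17.5 to 100.6), and its range lay wholly below that of Fmod. Chad (45.5 per kb), Tnmd (33.5 per kb) and Kera (25.1 per kb) came next, each overlapping its neighbours in the order. The transcription factors were lowest, Scx with 8.41 per kb (4.49 to 13.0) and Mkx with 7.27 per kb (1.33 to 16.7), levels above 10.8% and 9.12% of tested genes. All further levels are normalized counts, which are not scaled to length and are compared within a gene only, and they are listed in the order of the replicates, 1 to 4 for floxed mice and 5 to 8 for knockouts.

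Scx has few reads in this tissue. The gene (ID 20289) is on chromosome 15 (plus strand), between 76457452 and 76459458 in GRCm38. Scx normalized counts were 13.9, 26.1, 16.7 and 12.4 in the floxed mice and 9.01, 15.2, 18.6 and 23.0 in the knockouts, from 10 to 30 reads per library. Floxed control 2 and knockout 8 were highest and knockout 5 was lowest, and the groups overlapped. The SD over the 8 libraries was 1.35 times the counting error, the smallest such ratio among the 8 members, so differences between libraries are close to sampling noise at this depth. Scx lies inside Bop1, a ribosome biogenesis gene on the opposite strand, with no shared exon bases. The strand setting of the counting is not given in the sources used here, so reads from Bop1 introns could enter the count; Bop1 had a mean of 479 normalized counts and a correlation with Scx of 0.50 over the 8 libraries.

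Mkx varied most of the 8. The gene (ID 210719) is on chromosome 18 (minus strand), between 6934518 and 7004780. AC148004.2, annotated on the same strand, shares 201 exon bases with Mkx, and the effect on the Mkx count was not tested. Mkx normalized counts were 61.1, 21.8, 20.9 and 35.6 in the floxed mice and 26.1, 14.2, 27.9 and 4.84 in the knockouts. Floxed control 1 stood 12.6-fold above knockout 8, where only 4 reads were counted and the exact Poisson 95% interval, which covers counting error only, ran from 1.32 to 12.4 normalized counts. The log2 SD over libraries was 1.00, larger than in 97.9% of tested genes. Knockouts 5 and 7 lay within the range of the floxed controls, and knockout 6 lay below it.

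Tnmd marks differentiated tendon cells and was present in every library. The gene (ID 64103) is on chromosome X (plus strand), between 133850980 and 133865577. Tnmd normalized counts were 58.96, 39.2, 22.9 and 64.0 in the floxed mice and 55.0, 52.3, 48.4 and 21.8 in the knockouts. The lowest floxed control and the lowest knockout were at nearly the same level, and the other 6 libraries lay between 39.2 and 64.0. These lowest libraries, floxed control 3 and knockout 8, are the mice numbered 3250 and 3251.

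Fmod, the most abundant in RNA of the leucine-rich repeat members Fmod, Kera and Chad, has the second highest level of the 8 after Thbs4. The gene (ID 14264) is on chromosome 1 (plus strand), between 134037254 and 134048277. Fmod normalized counts were 1888, 1564, 1170 and 2414 in the floxed mice and 1466, 1109, 2027 and 737 in the knockouts. Floxed controls 1 and 4 and knockout 7 were high and knockout 8 was lowest, a 3.28-fold range. The spread was 14.1 times the counting error, so sampling of reads accounts for little of it.

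Kera (ID 16545, chromosome 10, 97606879 to 97613692, plus strand) had 109, 42.6, 32.3 and 107 normalized counts in the floxed mice and 56.8, 22.9, 54.9 and 31.5 in the knockouts. Floxed controls 1 and 4 were again high, and here knockout 6 was lowest. Chad (ID 12643, chromosome 11, 94565047 to 94569127, plus strand) had 116, 59.2, 56.3 and 110.2 normalized counts in the floxed mice and 64.0, 76.2, 95.9 and 33.9 in the knockouts. Floxed controls 1 and 4 and knockout 7 were the 3 highest Chad libraries, as they were for Fmod. Chad lies inside Acsf2, an acyl-CoA synthetase gene on the opposite strand, with no shared exon bases. Acsf2 had a mean of 44.6 normalized counts and a correlation of 0.78 with Chad over the 8 libraries. Since the strand setting is not given, reads from Acsf2 introns could enter the Chad count, as with Scx and Bop1.

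Comp and Thbs4 belong to the same family, but different libraries were their extremes. Comp (ID 12845, chromosome 8, 70373558 to 70382066, plus strand) had 224, 112, 115 and 196 normalized counts in the floxed mice and 124, 100.2, 243 and 42.4 in the knockouts. Knockout 7 was highest and knockout 8 lowest, a 5.74-fold range. Thbs4 (ID 21828, chromosome 13, 92751590 to 92794818, minus strand) had 4313, 3244, 2517 and 3625 normalized counts in the floxed mice and 2337, 5359, 3413 and 2765 in the knockouts. For Thbs4 the highest library was knockout 6 and the lowest knockout 5, where Comp had 100.2 and 124. The Thbs4 range was 2.29-fold, with a spread 17.0 times the counting error.

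**Figure D1:**
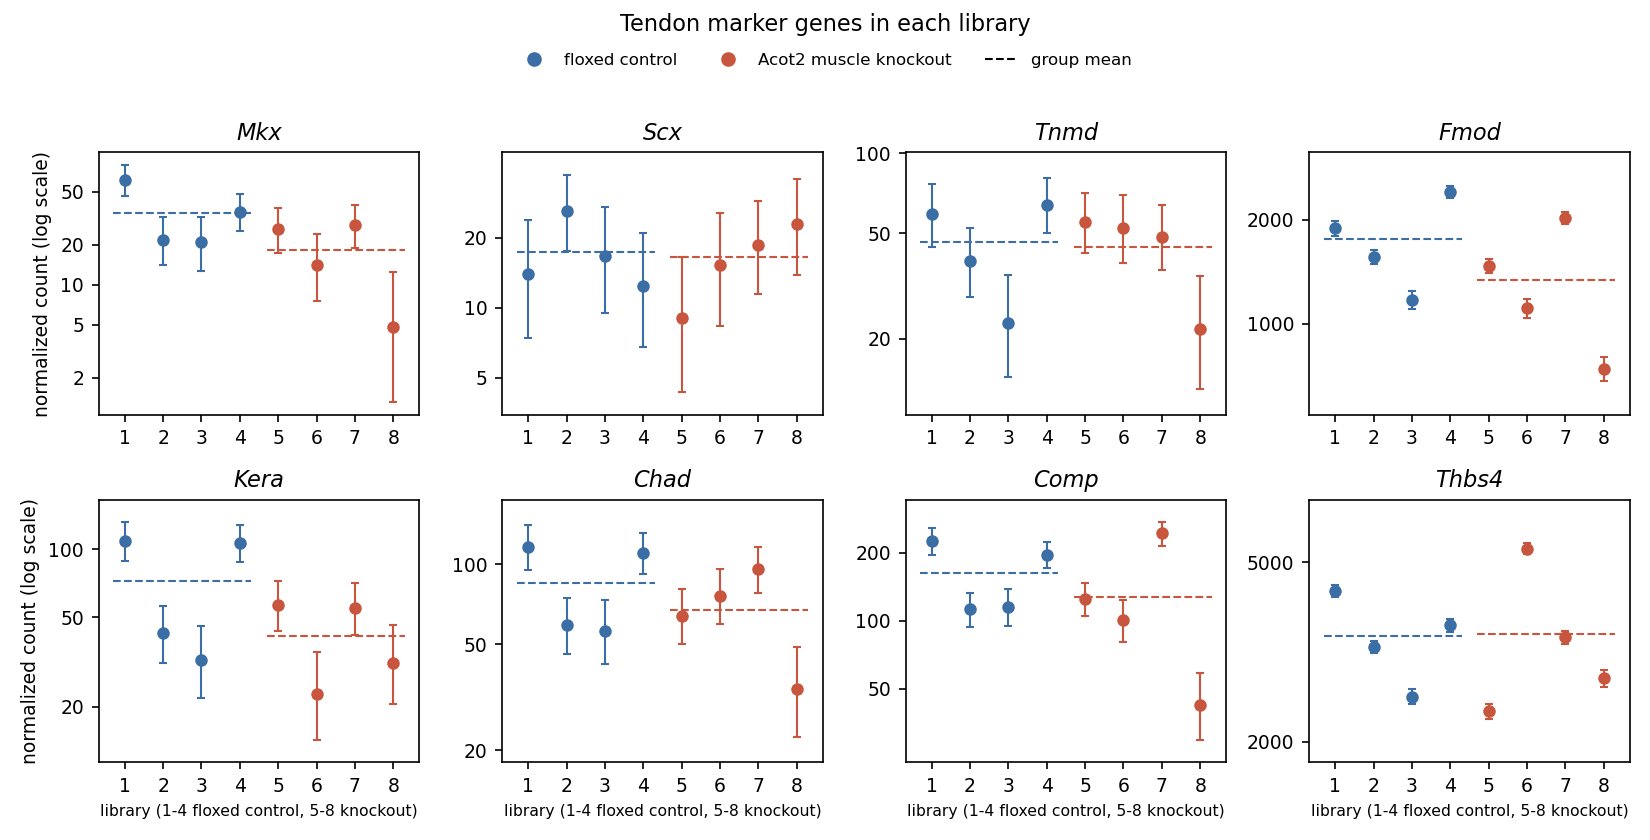
Normalized counts (log axis) of the 8 tendon marker genes in each library, floxed controls 1 to 4 beside knockouts 5 to 8, with 1 panel per gene; points are libraries, bars are exact Poisson 95% counting intervals and dashed lines are group means. Knockout 8 is the lowest point for Mkx, Tnmd, Fmod, Comp and Chad, and the groups overlap in all 8 panels.

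As a group the members varied more between mice than most genes. Their median log2 SD over the 8 libraries was 0.59, against 0.23 over all tested genes and 0.41 over the 5580 tested genes with a mean of 10 to 200 normalized counts. All 8 lay above the median of all tested genes, from Thbs4 (0.40, above 75.4% of genes) to Mkx. In a bulk sample, fewer cells of a type and less RNA per cell cannot be told apart.

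Of the 8 members 6 went up and down together, and the pairs that include Scx or Thbs4 had lower correlations, from -0.60 to 0.565. Over the 28 pairs of members the median Pearson r on the log2 scale was 0.67, and 22 pairs were positive. Of the pairs, 14 (50%) had an r of at least 0.7, where 4.91% of all pairs of tested genes did and the median over all pairs was -0.001. Pairs that share a gene are not independent, and all pairs share the same 8 libraries. By exact permutation of the libraries with Benjamini-Hochberg adjustment over the 28 pairs, 9 pairs passed 0.05 with Pearson's r and 6 with Spearman's rho.

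Mkx, Kera, Tnmd, Fmod, Comp and Chad, a set formed after the values were seen, had r between 0.63 and 0.93 in all 15 of their pairs, with a median of 0.81. Fmod and Comp, a fibril-binding proteoglycan and a pentameric matrix protein, had r = 0.93 (exact permutation p = 0.00154, adjusted 0.0188) and rho = 0.86 (exact permutation p = 0.0107, adjusted 0.0499). Leaving out the libraries farthest from the Fmod median, floxed control 4 and knockout 8, left r = 0.89. Leaving out those farthest from the median of the members' mean z-score, floxed control 1 and knockout 8, left r = 0.87. Mkx and Comp had r = 0.93 (exact permutation p = 0.00141, adjusted 0.0188) and rho = 0.91 (exact permutation p = 0.00456, adjusted 0.0426), with r = 0.78 without floxed control 1 and knockout 8, which are farthest from the Mkx median too. Comp and Chad had r = 0.93 (exact permutation p = 0.00322, adjusted 0.0188) but rho = 0.76 (exact permutation p = 0.0368, adjusted 0.0859), so this pair did not pass on ranks; without its farthest libraries, knockouts 7 and 8, r was 0.88. Tnmd and Chad had r = 0.85 (exact permutation p = 0.00263, adjusted 0.0188) and rho = 0.88 (exact permutation p = 0.00724, adjusted 0.0499), with r = 0.70 without floxed control 3 and knockout 8, the farthest for Tnmd. The weakest of the 15 was Kera with Tnmd, at r = 0.63 (exact permutation p = 0.0955, adjusted 0.178) and rho = 0.74 (exact permutation p = 0.0458, adjusted 0.0986), with r = 0.365 without floxed controls 1 and 4, the farthest for Kera.

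With each group's mean removed, the same 15 pairs had r from 0.66 to 0.93, as high as before. Their median was lower without the extreme libraries. Without floxed control 1 and knockout 8 the 15 values ran from 0.35 (Mkx with Tnmd) to 0.97 (Mkx with Kera) with a median of 0.72, and among the 6 mice numbered 3204 to 3210 from 0.37 to 0.94 with a median of 0.71. With each pair's own farthest libraries left out, as for the pairs above, they ran from 0.31 to 0.97 with a median of 0.67. Leaving out each library in turn moved the median of the 15 between 0.73 (without knockout 8) and 0.88 (without knockout 6). The mice numbered 3250 and 3251 are too few for a value of their own. They were among the lowest libraries: both lay below every other mouse for Tnmd and Chad, knockout 8 was lowest for 5 members, and floxed control 3 was among the 3 lowest for 6. The part of the number range in the pattern was not tested beyond the within-range values.

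Scx was negatively related to 6 of the other 7 members, with r from -0.60 (Tnmd) to 0.046 (Thbs4). With Tnmd, which needs scleraxis in the embryo, the exact permutation p was 0.122 (adjusted 0.213), and rho was -0.81 (exact permutation p = 0.0218, adjusted 0.0678). Neither passed after adjustment, and r was -0.77 without floxed control 2 and knockout 5, the farthest for Scx, and -0.45 without floxed control 1 and knockout 8. Thbs4 had r from 0.046 with Scx to 0.565 with Chad (exact permutation p = 0.144, adjusted 0.237; rho = 0.69, exact permutation p = 0.0694, adjusted 0.13). With Comp, its family member, it had r = 0.30 (exact permutation p = 0.474, adjusted 0.553; rho = 0.17, exact permutation p = 0.703, adjusted 0.757). These values rest on single libraries: without knockouts 5 and 6, the farthest for Thbs4, r was 0.82 with Chad and 0.70 with Comp. Within mice 3204 to 3210 r with Thbs4 ran from -0.25 (Kera) to 0.425 (Chad). Without floxed control 1 and knockout 8, r with Thbs4 ran from -0.435 (Mkx) to 0.467 (Chad).

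**Figure D2:**
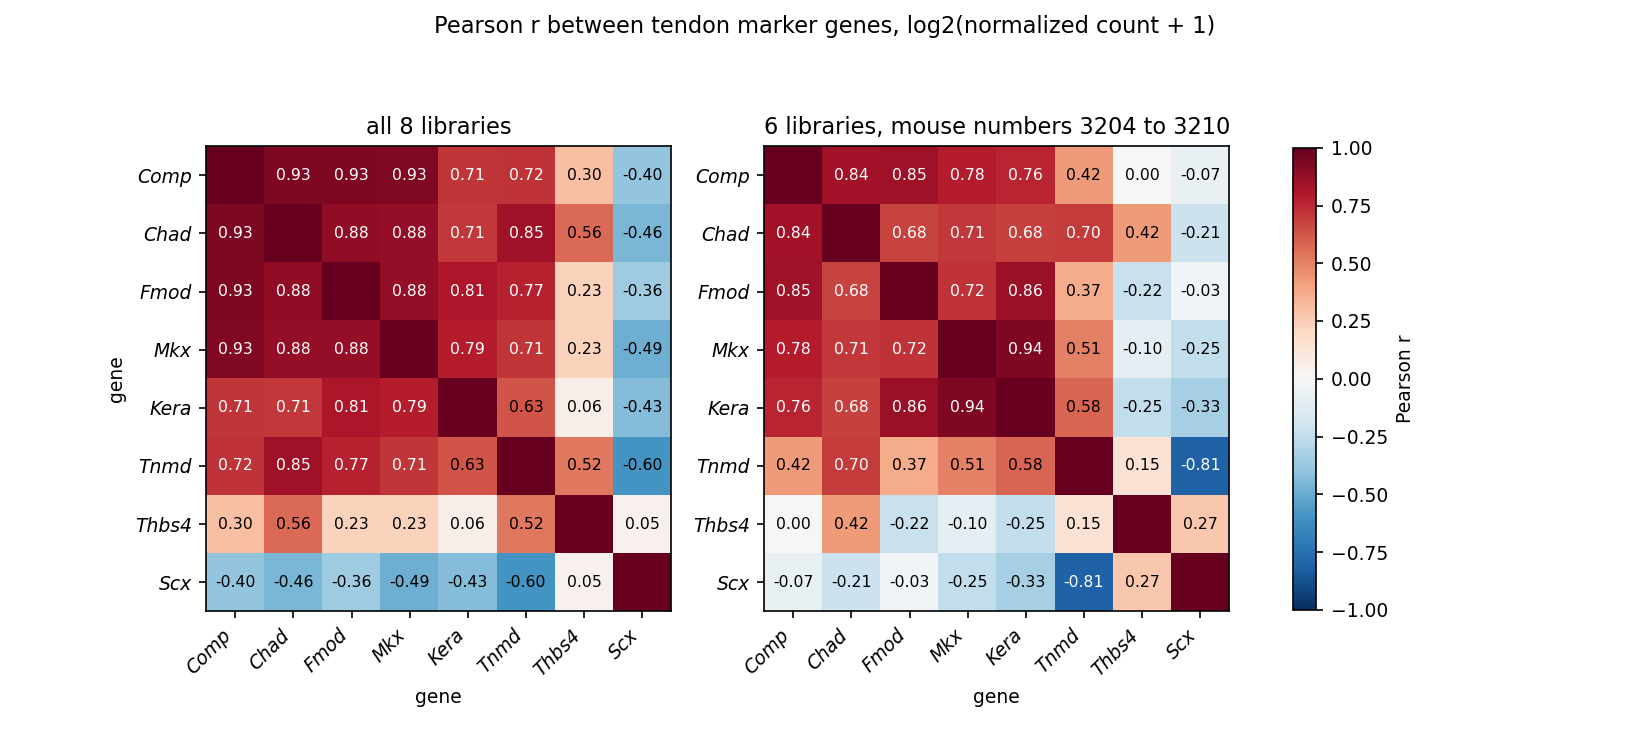
Pearson r of each pair of members on the log2 scale, over all 8 libraries (left) and over the 6 mice numbered 3204 to 3210 (right); colour and number give r. The block of Mkx, Kera, Tnmd, Fmod, Comp and Chad is positive throughout in both panels, and the Scx row is mostly negative.

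Read by library, the 6 covarying members were highest in floxed controls 1 and 4 and in knockout 7, where 6 of 6 lay above their own mean. In floxed control 1 they averaged 1.76 times their own geometric mean, in floxed control 4 1.64 times, and in knockout 7 1.33 times. In floxed control 3 and knockout 8, 0 of 6 lay above it, with averages of 0.762 and 0.437 times. Floxed control 2 (0.923) and knockout 5 (1.07) were near the middle. Knockout 6 averaged 0.79, close to floxed control 3, but its members spread widely: Kera was lowest there, while Tnmd and Chad were above their means. The high and low libraries thus came from both genotypes. The tendon content of the pieces is not recorded in the sources used here, so its part in the pattern was not tested.

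**Figure D3:**
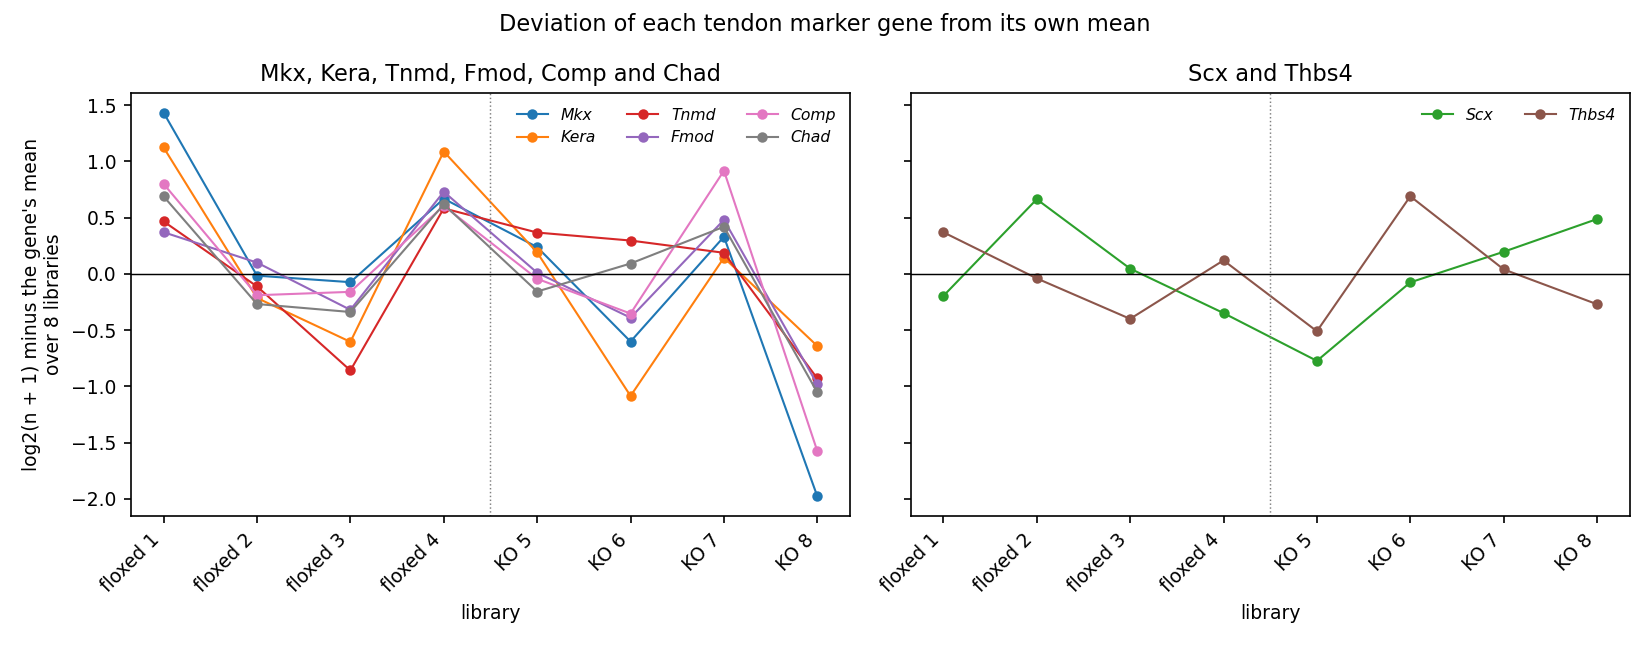
Log2 deviation of each member from its own mean over the 8 libraries, by library. Floxed controls 1 and 4 and knockout 7 lie above 0 and knockout 8 below 0 for the 6 covarying genes, while Scx and Thbs4 have other high and low libraries; lines join values of 1 gene and mark no order among mice.

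Genes outside the members were ranked by their Pearson r with the members' mean z-score over the 8 libraries, given here as a description. Of 13133 genes, 278 (2.12%) had r of at least 0.7, and the median was -0.014. The 10 most alike with established names were Kazald1 (0.96), Nrbp2 (0.96), Asxl3 (0.95), Vipr2 (0.95), Ugcg (0.93), Arhgap22 (0.93), Rpl37rt (0.93), Cilp2 (0.92), Col11a1 (0.91) and Mfap2 (0.90). Rpl37rt is a retrotransposed copy of a ribosomal protein gene, so its reads may be shared with the parent gene. Cilp2, Col11a1 and Mfap2 encode matrix proteins, respectively of the cartilage intermediate layer protein family, of the fibrillar collagens and of microfibrils. Cilp2 had 327, 115, 145 and 315 normalized counts in the floxed mice and 133, 110.0, 199 and 44.8 in the knockouts. Col11a1 had 188, 72.2, 101.1 and 174 in the floxed mice and 69.4, 79.5, 137 and 29.1 in the knockouts. Both repeat the order of the 6 members at the extremes, with floxed controls 1 and 4 highest and knockout 8 lowest. Within the mice numbered 3204 to 3210, r was 0.94 for Cilp2 and 0.98 for Col11a1. In the 6 libraries other than floxed control 1 and knockout 8 these were 0.76 and 0.73.

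The 3 most abundant tendon matrix genes had correlations of 0.50 or less with the members. Of 31 matrix genes listed as companions in tendon, 29 were tested, 3 had r of at least 0.7 (Cilp2, Col12a1 and Angptl7) and 11 were negative, with a median of 0.18. Col1a1, Dcn and Col1a2 were the most abundant of the list. Col1a1, which encodes the main tendon collagen, had r = 0.50, with 15430, 4807, 11860 and 16010 normalized counts in the floxed mice and 11220, 14120, 6635 and 4543 in the knockouts. It shared the high floxed controls 1 and 4 and the low knockout 8, but knockout 7 was low. Dcn, decorin, had r = -0.31 and a range of only 1.38-fold, and Col1a2 had r = 0.43. Col12a1, a collagen of fibril surfaces, had r = 0.80 over the 8 libraries and 0.34 within mice 3204 to 3210. Fibroblasts of muscle and of many other tissues also express these collagens and decorin.

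Among 13 tested regulators of tendon development, of 17 listed, 0 had r of at least 0.7 and the median was 0.11. Tgfbr1 and Smad3 were among the most abundant. In the small leucine-rich proteoglycan family, the 9 tested genes outside the members had a median of 0.23, with Dcn and Prelp (r = 0.68) the most abundant of them. Of the thrombospondin family, Thbs1 (0.20) and Thbs2 (0.25) were the most abundant besides Thbs4, and Thbs1 to Thbs3 all lay between 0.16 and 0.25. Of 11 genes of the junction between muscle and tendon, led in level by Dmd, Itgb1 and Tln2, 1 had r of at least 0.7. This was Col22a1, a collagen restricted to tissue junctions such as this one, with r = 0.80 and 0.87 within mice 3204 to 3210. It had 1394, 775, 1137 and 1477 normalized counts in the floxed mice and 901, 615, 1209 and 453 in the knockouts. Its high libraries included those of the 6 members, and knockout 8 was lowest.

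Markers of other cells that a dissection could hold were read the same way. Of 12 genes of muscle connective tissue cells, led by Smoc2, Pdgfra and Cd34, 10 were negative, where 51.2% of all tested genes were. Their median r was -0.20. Floxed control 1, highest on the members' mean z-score (0.875), was the lowest library for this list, at -0.526 in log2 from the list's own mean. How far the negative values rest on that library was not tested. Of 10 cartilage genes 9 matched a row and 2 were tested, Col11a2 (r = 0.82) and Col9a1 (0.33). The defining cartilage genes were near 0: Col2a1 had a mean of 4.72 normalized counts, Acan was at 0 in 4 libraries, and Matn1 was at 0 in all 8. At these low levels r was 0.61 for Col2a1 (0.90 within mice 3204 to 3210) and 0.57 for Acan. It was 0.24 for Matn3, 0.21 for Hapln1, -0.39 for Col9a2 and -0.35 for Col9a3, all also under the minimum. The sum of the 2 tested cartilage genes ranged from 125 to 242 normalized counts in floxed controls and from 59.3 to 124 in knockouts. This sum is mostly Col11a2 and was not tested. For Col11a2 alone the groups overlapped, and its limma adjusted p was 0.746. Of 7 bone genes 2 were tested, Alpl and Runx2, both negative, and Bglap, osteocalcin, was at 0 in all 8 libraries. Schwann cell genes (Mbp and Prx among the highest) had a median of 0.31, genes of slow or oxidative fibres (Myh2, Atp2a2 and Myh7 highest) 0.30, and satellite cell genes (Pax7 and Myf5) 0.18.

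Most vessel, blood and immune genes had negative correlations with the members, where 51.2% of all tested genes did. Negative were 5 of 6 mural, 6 of 8 endothelial and 7 of 7 macrophage genes, and Cdh5 (0.17), Tie1 (0.073) and Notch3 (0.075) were positive. The median r was -0.61 for 6 mural genes (Rgs5, Myh11 and Pdgfrb highest), -0.42 for 8 endothelial genes (Flt1, Pecam1 and Cdh5 highest) and -0.63 for the blood genes Hbb-bs and Hba-a1. It was -0.31 for 7 macrophage genes (Lyz2, Cd163 and Mrc1 highest) and -0.23 for 6 adipocyte genes (Fabp4, Cfd and Cidec highest). Floxed control 1, highest on the members' mean z-score (0.875), was the lowest library for both lists. Its mean log2 deviated by -0.898 from the macrophage list's own mean and by -1.7 from the adipocyte list's. How far these negative values rest on that library was not tested. Genes of fast glycolytic fibres, of which Myh4, Acta1 and Atp2a1 were highest, had a median of -0.26. In summed normalized counts the macrophage list ranged from 1339 to 2633 in floxed controls and from 2366 to 4215 in knockouts, and the mural list from 12370 to 15630 and from 15680 to 17540. The sums were not tested, and the mural sum is mostly Rgs5 (limma adjusted p = 0.746). The part of these cells in the members' pattern was not tested.

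**Figure D4:**
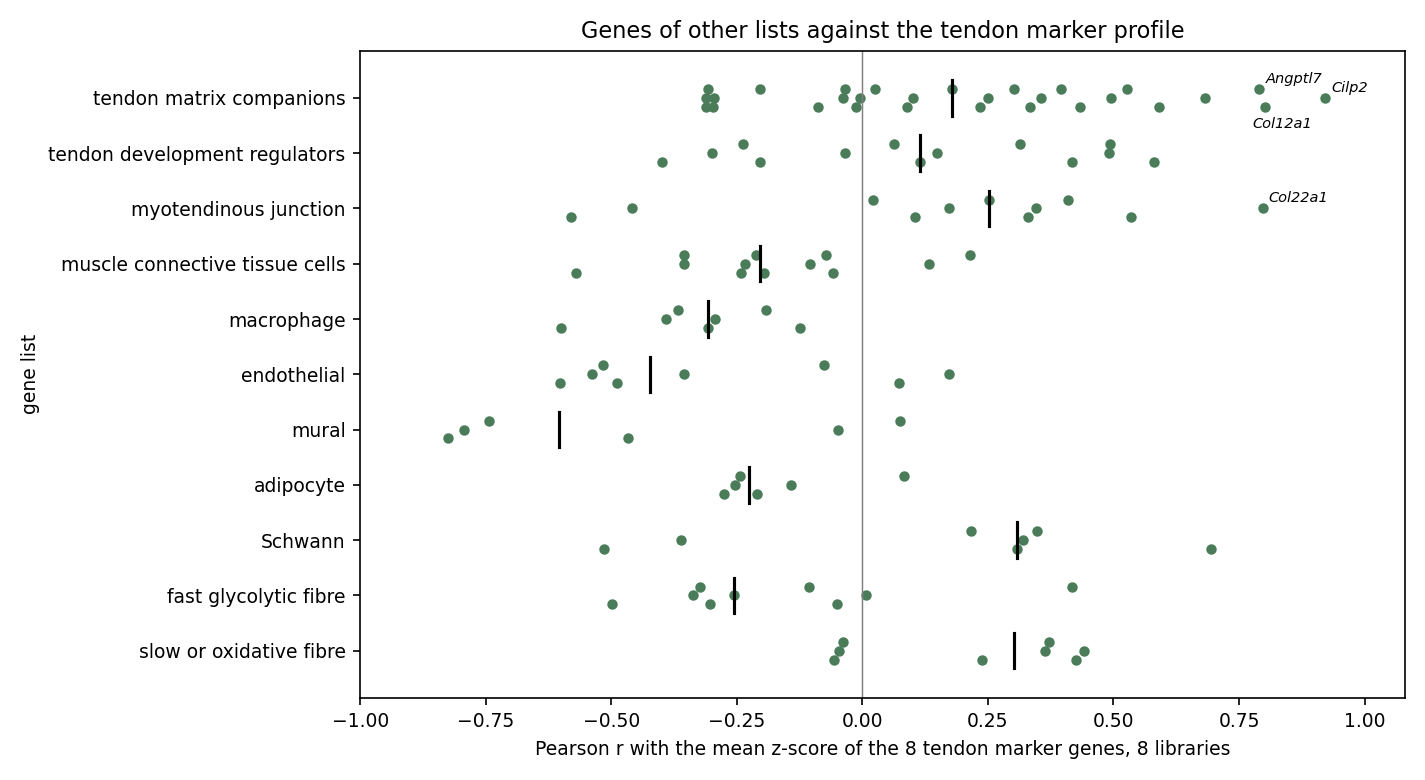
Pearson r of each tested gene with the members' mean z-score over the 8 libraries, by gene list; points are genes and bars are list medians. Cilp2, Col12a1, Angptl7 and Col22a1 lie at or above 0.79, while mural, endothelial and macrophage genes lie mostly below 0.

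The genotype groups overlapped for every member. At a limma adjusted p under 0.05, 0 of the 8 were called, where 0% of all 13141 tested genes were (0 by voom on the recovered reads too, with 756 at an unadjusted p under 0.05). At an unadjusted p under 0.05, 0 of 8 passed, where 6.16% of tested genes did, 810 in all, of which 324 were higher in the knockout (491 of 739 when libraries were scaled to the same total). In 0 of 8 did the groups not overlap, where 2.75% of tested genes did not. The limma adjusted p of the members lay between 0.746 and 0.984.

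The differences, knockout minus floxed control on the log2(n + 1) scale, were below 0 for all 8 members as normalized by the authors, and those of Tnmd and Thbs4 turned to just above 0 when libraries were scaled to the same total. The median was -0.40, against 0.0031 over all tested genes. Since 6 members vary together, their signs are not independent observations. Mkx had the largest difference, -1.01 (SE 0.537, 95% interval -2.19 to 0.18), from 34.8 ± 18.8 (SD, n = 4) normalized counts in the floxed mice to 18.3 ± 10.8 (SD, n = 4) in knockouts. Kera differed by -0.70 (SE 0.439, interval -1.66 to 0.27). Comp differed by -0.53 (SE 0.443, interval -1.50 to 0.45) and Fmod by -0.45 (SE 0.289, interval -1.08 to 0.19). Each interval crosses 0, and knockout 8 is the lowest library for Mkx, Fmod and Comp. Without knockout 8 the differences were -0.51 for Mkx, -0.19 for Fmod and -0.090 for Comp. For Kera the difference was -0.44 without floxed control 1, -0.45 without floxed control 4 and -0.45 without knockout 6.

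Fmod stood at 1759 ± 526 (SD, n = 4) normalized counts in the floxed mice and 1335 ± 549 (SD, n = 4) in knockouts, a gap smaller than the SD of either group. Chad differed by -0.35 (SE 0.347, interval -1.11 to 0.41), and by -0.057 without knockout 8, -0.18 without floxed control 1 and -0.20 without floxed control 4. Scx, Tnmd and Thbs4 were closest to 0, at -0.082 (SE 0.388), -0.039 (SE 0.383) and -0.028 (SE 0.235). Thbs4 had 3425 ± 750 (SD, n = 4) normalized counts in the floxed mice and 3469 ± 1336 (SD, n = 4) in knockouts, so its mean and its log2 difference point opposite ways. For Thbs4 the interval from -0.55 to 0.49 bounds the difference most tightly of the 8. For Mkx the interval, the widest of the 8, holds large falls as well as a small rise.

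The companion lists showed 0 called genes. Of the 29 tendon matrix companions 19 were higher and 10 lower in the knockout, with a median difference of 0.06, and the summed list ranged from 53640 to 77350 normalized counts in floxed controls and from 50450 to 107300 in knockouts. Values were higher in the knockout for 7 of 7 macrophage genes (median difference 0.55), 6 of 8 endothelial genes (0.20) and 5 of 6 mural genes (0.31). At an unadjusted p under 0.05 there were 4, 4 and 1 of these, where 6.16% of all tested genes passed, and their lowest limma adjusted p was 0.746. These lists did not have the largest median. Among slow or oxidative fibre genes 7 of 8 were higher in the knockout, with a median of 1.22, or 0.558 without knockout 7. The cartilage and bone lists, with 2 tested genes each, had medians of -0.58 and 0.53.

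**Figure D5:**
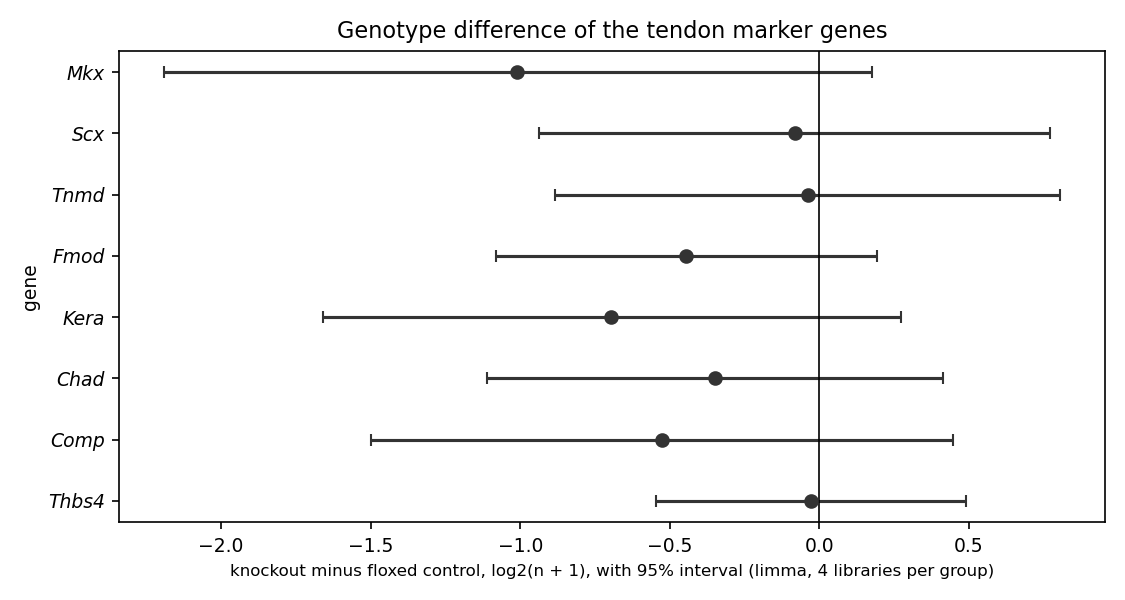
Difference of each member, knockout minus floxed control in log2, with its 95% interval from limma (n = 4 mice per group). All 8 points lie at or below 0 with the authors' normalization, and all 8 intervals cross 0; scaled to the same total, Tnmd and Thbs4 lie just above 0.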

How the data were processed

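Total RNA of 8 quadriceps samples was extracted with a column kit and made into stranded TruSeq libraries, per the labels' protocols. Trimming, alignment and counting tools listed in the submitters' processing notes are STAR, HTSeq, DESeq2, cutadapt and FastQC, with GRCm38 as build and no version. The strand setting was not found in them. What the authors deposited is log2(n + 1), where, judging by the values, n is a gene's reads over a size factor of the library. These values are not scaled to length, and the pseudocount of 1 understates fold changes of low genes. Whole reads were recovered from n and used for counting intervals (exact Poisson, 95%) and for voom only.

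Genes with a mean n of at least 10 entered a limma fit (version 3.58.1, R 4.3.3; lmFit, eBayes with a trend) and Benjamini-Hochberg adjustment over all 13141. Samples were grouped by the labelled genotype. Each library has its own mouse number, taken as a separate animal. Pairs of members were tested by exact two-sided permutation of the libraries. The likeness score is the mean of the members' z-scored log2 values. GENCODE's GRCm38 annotation gave positions, counted from 1, and lengths.

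The members and lists were chosen with earlier results of these data known. The text names all members, the 10 genes most like them without provisional names, the 3 most abundant tested genes of each list, and Acot2; 2 genes that this rule selects are not reported here. Col12a1, Angptl7, Col22a1, Prelp, Thbs3, Tie1, Notch3, Bop1, Acsf2, the cartilage and bone genes under the minimum, and those under other observations were named after their values were seen. AC148004.2 was named only for its overlap with Mkx. The fit was tested on simulated data. Alternatives covered the pseudocount, filter, scaling, variance model, single libraries, the mouse number range and voom.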

Additional observations from a re-analysis of the deposited data

Results flagged for a closer look

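In knockout 8, Tnmd had 21.8 normalized counts, where the other knockouts had 48.4 to 55.0. On the log2(n + 1) scale the gap to the nearest of them was 0.861 of the whole range of the group. This lies above Dixon's 95% critical value for 4 samples on the log2 scale only, not on the normalized counts themselves. Chance alone sets apart about 1 in 20 groups in this way, and each of the 8 members has a floxed and a knockout group. Floxed control 3 had a similar value, 22.9.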

How the results depend on the processing

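Over 19 other settings the members gave 149 differences, of which 136 kept their sign, and 0 members were called in any. The lowest limma adjusted p was 0.307. The changed filters, the robust variance model and the mouse number range, which is balanced over the groups, cannot alter a difference. The signs in those settings were fixed in advance. Mkx, Kera, Fmod, Comp and Chad stayed negative in every setting that tested them, but the size depended on single libraries. Over the left-out libraries Mkx ranged from -1.28 to -0.514, Kera from -1.01 to -0.438, Fmod from -0.678 to -0.191, Comp from -0.921 to -0.0902 and Chad from -0.548 to -0.0567. The value nearest 0 was without knockout 8 for all of these except Kera, where it was without floxed control 1. Scx turned to 0.067 with array weights and ranged from -0.258 to 0.162 when each library was left out. Tnmd turned to 0.0013 with scaling by total and ranged from -0.332 to 0.264 over the left-out libraries. Thbs4 turned to 0.014 with scaling by total and to 0.013 with array weights, and ranged from -0.261 to 0.138. Scaling by total moved the median of all tested genes from 0.0031 to 0.044, and a minimum of 50 left Mkx, Scx and Tnmd untested. The median r over member pairs ranged from 0.518 (without knockout 8) to 0.768 (without knockout 6) over the left-out libraries. It was 0.441 without floxed control 1 and knockout 8, 0.423 in mice 3204 to 3210, 0.565 without any 1 of Mkx, Kera, Tnmd, Fmod or Comp, and 0.525 without Chad. The cause of these shifts was not tested. The count of genes at an unadjusted p under 0.05, 810 in all 8 libraries, was 2200 without knockout 5, 1467 with array weights, and 518, 367, 422 and 456 without floxed control 1, floxed control 4, knockout 6 and knockout 8. Without the minimum, 1362 of 25596 genes passed it and 1 gene, Acot2, was called. Of 322 list medians, 56 moved by over 0.1. Scx, with 10 to 30 reads per library, is limited by depth. No paired analysis was made because the labels name no pairs of floxed and knockout mice.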

Other observations

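Some listed tendon matrix genes, picked here after their values were seen, had high correlations with Thbs4. Over the 8 libraries its r was 0.92 with Cilp, a cartilage intermediate layer protein, 0.88 with Angptl7 (which also had 0.79 with the members' mean z-score), 0.86 with Prg4 (lubricin) and 0.82 with Col14a1, a collagen of fibril surfaces. Cilp had 1307, 1366, 1025 and 1334 normalized counts in the floxed mice and 850.0, 1904, 1435 and 1116 in the knockouts. Knockout 6 was highest and knockout 5 lowest for Cilp, as for Thbs4. In knockout 6, Col3a1, a collagen of loose connective tissue, stood at 27240 normalized counts, where the other 7 libraries lay between 5730 and 8456. Postn, periostin, stood at 788 there, against 67.9 to 277 in the others. Cd163, a macrophage receptor, was also highest in knockout 6, at 856 against 217 to 640. In that library the 6 covarying members averaged 0.79 times their own mean.

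The genes most like Scx over the 8 libraries were Popdc3 (r = 0.99), Ecsit (0.98), Slain2 (0.97), Hnrnpdl (0.95) and Cdv3 (0.95), with means from 706 to 5129 normalized counts, where Scx had 10 to 30 reads per library. Those most like Thbs4 included Apeh (0.94), Pcsk5 (0.94), Cyb5r3 (0.94) and Hhipl1 (0.94), each highest in knockout 6. Both sets head a ranking of many genes over 8 libraries, where selection alone gives high r. The spread of Scx was only 1.35 times its counting error.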
